A study of Mus musculus with 6 samples.

Results

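The core pluripotency factors examined here were Pou5f1 (the Oct4 gene), Sox2, Nanog, Sall4, Utf1, Zfp206 (now Zscan10), Rif1, Lin28 (now Lin28a) and Gdf3. All non-control probes listed under these names on the array were taken, which gave 9 of 27962 gene names and 11 of 41174 probes. Sall4 and Rif1 had 2 probes each and the other 7 genes 1 probe each. Total RNA had been hybridised to 1-colour Agilent arrays in 2 groups of 3 samples. Mouse embryonic stem (mES) cells, lines of blastocyst origin, were represented by replicate 1 (line ESF122), replicate 2 (ESF175/1) and replicate 3, which carries ESF58/2 in one label and ESF58/1 in another. Epiblast stem cells (EpiSC), lines derived from the epiblast after implantation, were represented by replicate 1 (line EpiSC-5), replicate 2 (EpiSC-7 at passage 20) and replicate 3 (EpiSC-7 at passage 25). The EpiSC group therefore held 2 lines. Both kinds of cell were grown on irradiated mouse embryonic fibroblasts in the same basal medium, mES cells with LIF and EpiSC with FGF2, so that the growth factor went with the group. No strain or genotype is given in the labels.

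Oct4 and Sox2 bind DNA together at paired octamer and Sox elements, and with Nanog they hold the gene network of pluripotent cells in place, their own genes included. The network is used both by mES cells, a model of the blastocyst stage, and by EpiSC, a model of the later epiblast, although the enhancers and partner factors differ between the stages. Sall4, Utf1, Zfp206, Rif1, Lin28 and Gdf3 are other genes known for high expression in undifferentiated mES cells.

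Promoters of 6 of the 9 genes were found in the RefSeq table of the build GRCm38.p6. The 250 bases upstream of the most upstream start are shown for 4 of them, Nanog and Sox2 because they hold an octamer, and Utf1 and Zscan10 because their probes passed the test described below. Capitals mark the octamer letters ATGCAAA and the Sox letters CATTGT, read on either strand, and all 4 genes lie on the plus strand. The windows are chr6:122707239-122707488 for Nanog, chr3:34649745-34649994 for Sox2, chr7:139943606-139943855 for Utf1 and chr17:23600576-23600825 for Zscan10.
Nanog: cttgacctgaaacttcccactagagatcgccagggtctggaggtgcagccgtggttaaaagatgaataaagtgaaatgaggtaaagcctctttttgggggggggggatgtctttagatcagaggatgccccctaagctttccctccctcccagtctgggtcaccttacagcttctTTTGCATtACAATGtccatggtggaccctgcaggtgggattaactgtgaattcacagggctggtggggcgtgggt
Sox2: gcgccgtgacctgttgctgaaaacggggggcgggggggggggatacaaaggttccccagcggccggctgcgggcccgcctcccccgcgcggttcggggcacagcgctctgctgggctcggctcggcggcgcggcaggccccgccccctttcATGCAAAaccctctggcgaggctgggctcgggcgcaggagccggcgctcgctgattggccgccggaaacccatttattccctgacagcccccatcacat
Utf1: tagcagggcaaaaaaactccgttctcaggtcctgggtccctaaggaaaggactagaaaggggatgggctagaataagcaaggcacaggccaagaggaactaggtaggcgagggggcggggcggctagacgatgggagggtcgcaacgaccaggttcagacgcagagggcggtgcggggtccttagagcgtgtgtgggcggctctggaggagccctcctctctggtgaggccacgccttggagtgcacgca
Zscan10: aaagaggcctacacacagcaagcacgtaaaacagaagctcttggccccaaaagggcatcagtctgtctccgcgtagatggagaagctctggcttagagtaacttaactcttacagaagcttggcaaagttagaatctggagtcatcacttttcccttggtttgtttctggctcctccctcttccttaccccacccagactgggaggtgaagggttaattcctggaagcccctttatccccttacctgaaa

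In the Nanog promoter the octamer and the Sox letters stood 1 base apart, between 75 and 62 bases upstream of the start, on the minus strand. This composite, CATTGTNATGCAAA, occurred in 2 of 32851 promoter windows of the table, and both were windows of Nanog. The octamer alone was found in 4.12% of the windows and the Sox letters alone in 10.7%. Sox2 held 1 octamer, from 99 to 93 bases upstream, and Lin28a held the Sox letters once. Neither motif was found in the windows of Pou5f1, Utf1 or Zscan10. Utf1 held the GC box GGGCGG 4 times between 138 and 51 bases upstream, the first and second match sharing 1 base, and 32.7% of all windows held it at least once. These are matches of letters only, and no binding was measured.

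Signals are given below as multiples of each array's 75th percentile over non-control spots, a scaling made here, and the groups were compared with limma on the log2 of that value. All 11 probes were well above background on all 6 arrays. Over all 29552 probes that entered the test, 26% passed an adjusted p of 0.05, 11.7% higher in EpiSC and 14.3% lower. Of the 11 member probes 3 passed, all lower in EpiSC, a share close to that background. These were the probes of Utf1, Zfp206 and 1 of the 2 probes of Rif1. The 3 values of one group lay apart from those of the other for 9 of the 11 probes, against 48% of all probes. The median log2 fold change, EpiSC minus mES, was -0.75 over the member probes and -0.11 over all entering probes, and 8 of the 11 were below 0, against 56.3% of all entering probes. All p-values of single probes are limma's, adjusted by the Benjamini-Hochberg method over the 29552 probes. Errors of log2 fold changes are standard errors with 3 arrays per group. The EpiSC arrays stand for 2 lines, as both EpiSC-7 arrays entered as replicates. With these averaged the same 3 member probes passed, beside 20.9% of all probes. The adjusted p by limma was then 0.00499 for Utf1, 0.0389 for Zfp206 and 0.024 for A_51_P439711 of Rif1.

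**Figure D1:**
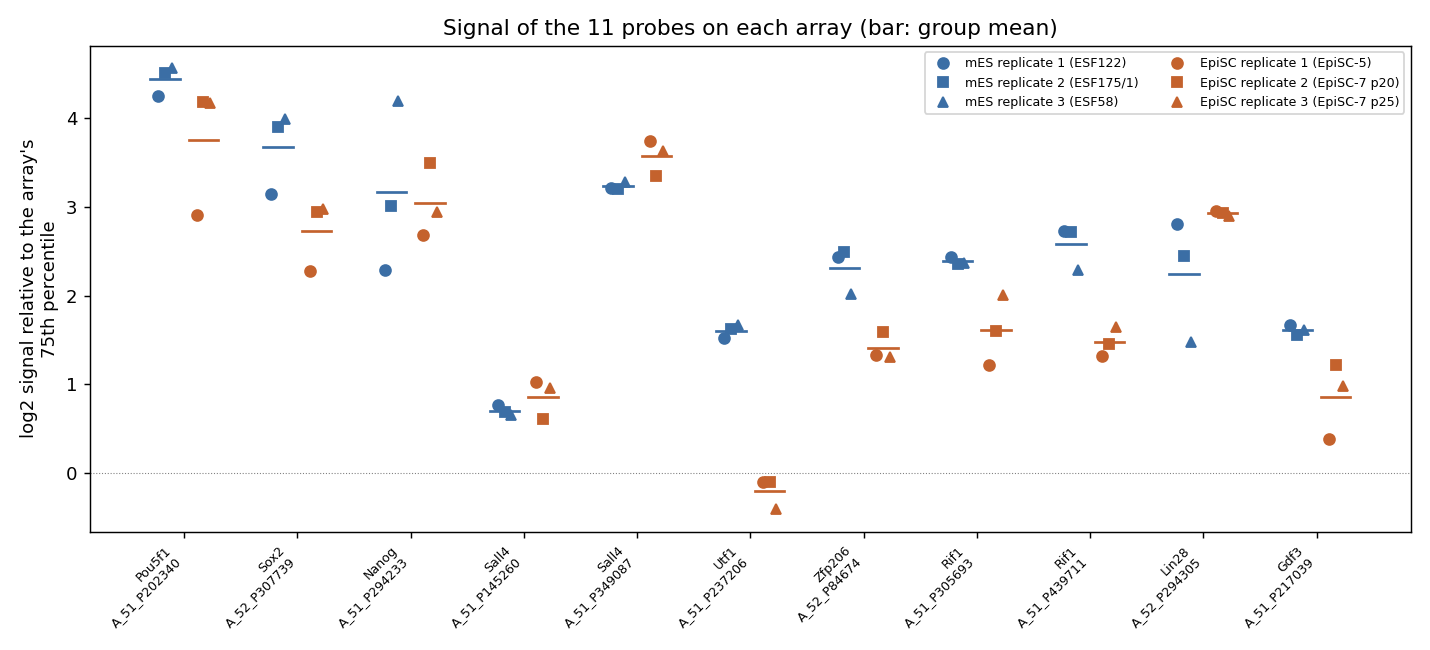
Signal of the 11 probes on each of the 6 arrays, as log2 relative to the array's 75th percentile (vertical axis), with 1 column of points per group and probe. Blue marks mES and orange EpiSC, the marker shape gives the replicate, and the bar is the mean of 3 arrays; Utf1 shows the widest gap between the groups and Nanog the widest spread among mES arrays.

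Pou5f1 encodes Oct4, the POU transcription factor without which no pluripotent inner cell mass forms. Its probe (A_51_P202340) read 19.0, 22.7 and 23.7 times the 75th percentile on mES replicates 1 to 3, and 7.51, 18.1 and 18.1 times on EpiSC replicates 1 to 3. All 3 EpiSC values lay below all 3 mES values, but both EpiSC-7 arrays were close to the mES range and only EpiSC-5 was far below it. The log2 fold change of -0.69 ± 0.37 did not pass (adjusted p = 0.204), and its 95% interval ran from -1.57 to 0.19. Without EpiSC replicate 1 the log2 fold change was -0.27 (adjusted p = 0.419). The low value of EpiSC-5 was also seen before scaling, where its processed signal was 7285 against 12265 and 14891 on the EpiSC-7 arrays and 11953 to 15524 on the mES arrays. This array had the highest 75th percentile of the 6, 970.2, against 617 to 825 on the others.

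Sox2, the HMG-box partner of Oct4, gave 8.84, 14.9 and 15.9 times the 75th percentile on mES replicates 1 to 3 and 4.85, 7.69 and 7.87 times on EpiSC replicates 1 to 3 (probe A_52_P307739). The groups did not overlap, although mES replicate 1 lay nearer to the EpiSC-7 arrays than to the other mES arrays. The log2 fold change was -0.95 ± 0.31, with an interval from -1.69 to -0.20, and it missed the threshold (adjusted p = 0.066). Over 22 alternatives in processing or samples its log2 fold change stayed between -1.21 and -0.60, and 4 of them passed, among them normexp background correction (adjusted p = 0.0328) and the set without mES replicate 1 (adjusted p = 0.0404).

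Nanog encodes the homeobox factor that sustains self-renewal of mES cells without LIF when it is overexpressed. Its probe (A_51_P294233) read 4.90, 8.08 and 18.3 times the 75th percentile on mES replicates 1 to 3 and 6.45, 11.3 and 7.70 times on EpiSC replicates 1 to 3. The EpiSC values lay within the mES range, and the highest mES array exceeded the lowest by 3.73-fold. A range this wide among the mES arrays was met by 6.22% of all entering probes, whose median range was 1.43-fold. The log2 fold change of -0.12 ± 0.49 did not pass (adjusted p = 0.867), and the interval from -1.30 to 1.05 leaves room for a fold of 2 in either direction. The sign turned in 5 of 22 alternatives, for example without mES replicate 3 (0.39) or without EpiSC replicate 1 (0.05). The Nanog probe was designed on the accession AK010332, a RIKEN full-length cDNA from ES cells, and not on a RefSeq transcript.

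**Figure D2:**
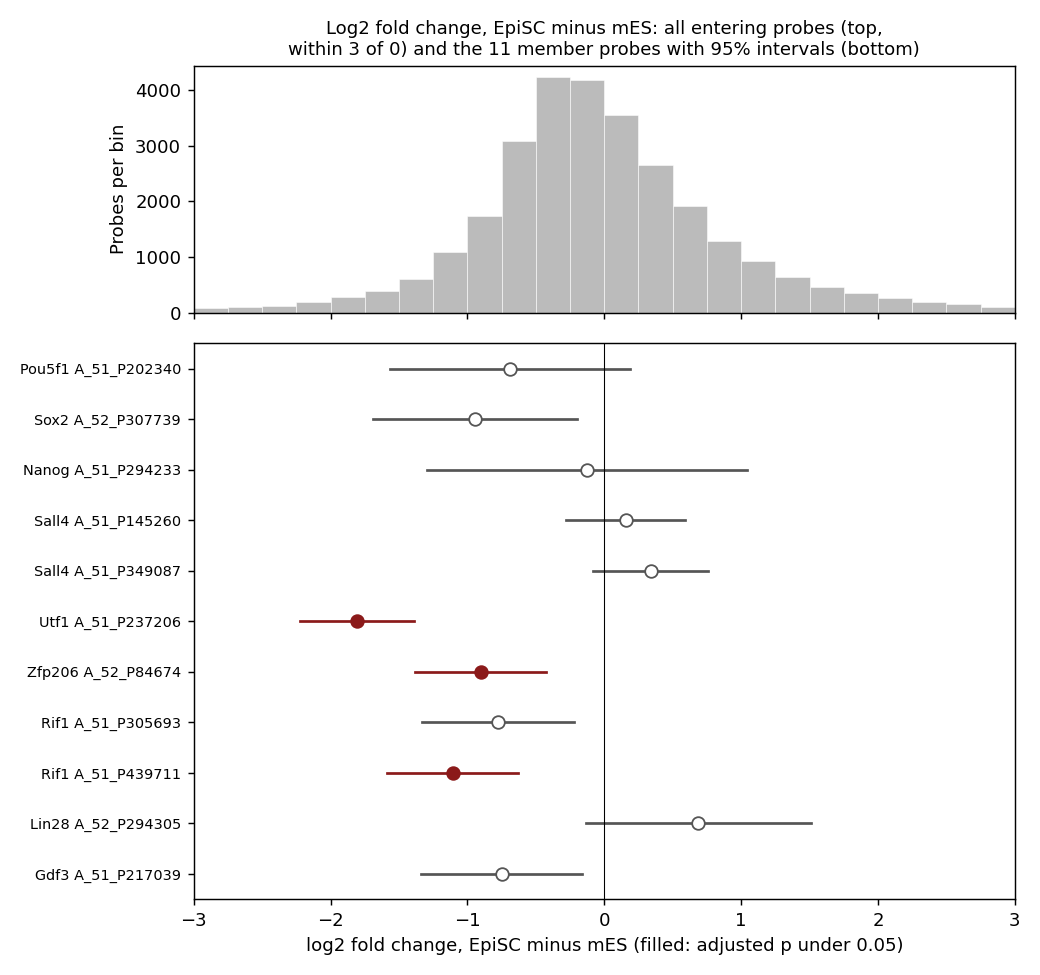
Upper panel, number of entering probes per bin of 0.25 in log2 fold change, EpiSC minus mES; lower panel, log2 fold change of each member probe with its 95% interval from limma, 3 arrays per group, filled where the adjusted p was under 0.05. Utf1, Zfp206 and the Rif1 probe A_51_P439711 are the filled points, at -1.81, -0.90 and -1.11.

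Sall4, a zinc finger factor that binds Oct4 and Nanog, was read by 2 probes, and neither passed. The probe A_51_P349087 read 9.29, 9.23 and 9.73 times the 75th percentile on mES replicates 1 to 3 and 13.4, 10.2 and 12.4 times on EpiSC replicates 1 to 3, higher on every EpiSC array than on any mES array. Its log2 fold change was 0.34 ± 0.18, with an interval from -0.08 to 0.76 (adjusted p = 0.192). The probe A_51_P145260 read 1.69, 1.61 and 1.58 times on the mES arrays and 2.03, 1.52 and 1.94 times on the EpiSC arrays, and its groups overlapped through EpiSC replicate 2. Its log2 fold change was 0.16 ± 0.18, from -0.28 to 0.59 (adjusted p = 0.543). Both probes thus gave small positive values, and on both EpiSC-5 was the highest EpiSC array and EpiSC-7 at passage 20 the lowest. The first was designed on AK017633, a RIKEN cDNA described in the scanner file as testis expressed gene 20, which the RefSeq table lists as a synonym of Sall4 (Tex20). The second was designed on transcript variant b.

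The 2 probes of a gene were compared directly by fitting the per-array difference between a probe and the brightest probe of the same gene over 8863 such pairs, of which 13% passed. For Sall4 the log2 fold change of A_51_P145260 was 0.18 lower than that of the other probe (difference -0.18 ± 0.11, interval -0.44 to 0.08, adjusted p = 0.321). For Rif1 the difference between A_51_P305693 and A_51_P439711 was 0.33 ± 0.19 (interval -0.13 to 0.79, adjusted p = 0.299). Neither difference passed, although only 1 of the Rif1 probes passed against mES by itself.

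Utf1 encodes a chromatin-bound factor whose gene is a direct target of Oct4 and Sox2 in mES cells. Its probe (A_51_P237206) read 2.86, 3.07 and 3.19 times the 75th percentile on mES replicates 1 to 3 and 0.931, 0.932 and 0.751 times on EpiSC replicates 1 to 3. The groups lay far apart and each was tight, with the highest mES array 1.11-fold above the lowest and the highest EpiSC array 1.24-fold above the lowest. EpiSC carried 3.50-fold less Utf1 signal (-1.81 ± 0.17 on the log2 scale, 95% interval 2.63-fold to 4.67-fold, adjusted p = 0.00137). It had the largest change of the 11 probes, and it was the only one that passed in all 22 alternatives (log2 fold change -1.86 to -1.46).

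Zfp206 encodes a SCAN-domain zinc finger factor of mES cells. Its probe (A_52_P84674) read 5.39, 5.63 and 4.05 times the 75th percentile on mES replicates 1 to 3 and 2.52, 3.01 and 2.47 times on EpiSC replicates 1 to 3. The groups did not overlap, with mES replicate 3 the mES array nearest to EpiSC. EpiSC carried 1.87-fold less Zfp206 signal (-0.90 ± 0.20 on the log2 scale, interval -1.39 to -0.42, adjusted p = 0.0208). The call was lost for 4 of the 6 arrays when each was dropped in turn, at an adjusted p of 0.0673 without mES replicate 1, 0.0681 without mES replicate 2, 0.0725 without EpiSC replicate 1 and 0.0719 without EpiSC replicate 3, while the log2 fold change stayed between -1.05 and -0.82. It was also lost with no scaling between arrays (-0.56, adjusted p = 0.159).

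Rif1 encodes a large chromatin protein that acts in the timing of DNA replication and in the choice of repair pathway at DNA breaks, and its transcript is abundant in mES cells. The probe A_51_P439711 read 6.62, 6.59 and 4.90 times the 75th percentile on mES replicates 1 to 3 and 2.49, 2.74 and 3.12 times on EpiSC replicates 1 to 3. Its signal fell 2.16-fold in EpiSC (-1.11 ± 0.20 on the log2 scale, interval -1.59 to -0.63, adjusted p = 0.0105) and passed without any 1 array (log2 fold change -1.25 to -1.03). The call was lost without the 2 arrays lowest in fibroblast markers (adjusted p = 0.0803) and with no scaling between arrays (-0.76, adjusted p = 0.0778). The probe A_51_P305693 read 5.40, 5.11 and 5.16 times on the mES arrays and 2.32, 3.04 and 4.0 times on the EpiSC arrays. The mES values of this probe were close together, while the EpiSC values spread over 1.73-fold with EpiSC-5 lowest. Its log2 fold change of -0.78 ± 0.23 lay just outside the threshold (adjusted p = 0.0503) and passed in 7 of 20 alternatives. Both probes were designed on the same RefSeq transcript, and neither had overlapping groups.

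Lin28 encodes an RNA-binding protein that blocks the maturation of let-7 microRNAs. Its probe (A_52_P294305) read 7.02, 5.43 and 2.78 times the 75th percentile on mES replicates 1 to 3 and 7.77, 7.63 and 7.46 times on EpiSC replicates 1 to 3. The EpiSC arrays were nearly equal, a range of 1.04-fold that 1.26% of all entering probes matched or undercut, whereas the mES arrays spread over 2.53-fold with mES replicate 3 lowest. All EpiSC values lay above all mES values, yet the change of 0.69 ± 0.34 on the log2 scale did not pass (interval -0.13 to 1.51, adjusted p = 0.179). Without mES replicate 3 it was 0.30 (adjusted p = 0.291).

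Gdf3 encodes a secreted ligand of the TGF-beta family that acts with the co-receptor Cripto, the product of Tdgf1, through activin receptors, and in other settings opposes BMP signals. Its probe (A_51_P217039) read 3.18, 2.93 and 3.05 times the 75th percentile on mES replicates 1 to 3 and 1.30, 2.33 and 1.96 times on EpiSC replicates 1 to 3. The mES arrays lay close together, and all EpiSC arrays were below them, EpiSC-5 farthest. The log2 fold change was -0.75 ± 0.25, with an interval from -1.34 to -0.17, and it missed the threshold (adjusted p = 0.0646). Without EpiSC replicate 1 it was -0.51 (adjusted p = 0.147).

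**Figure D3:**
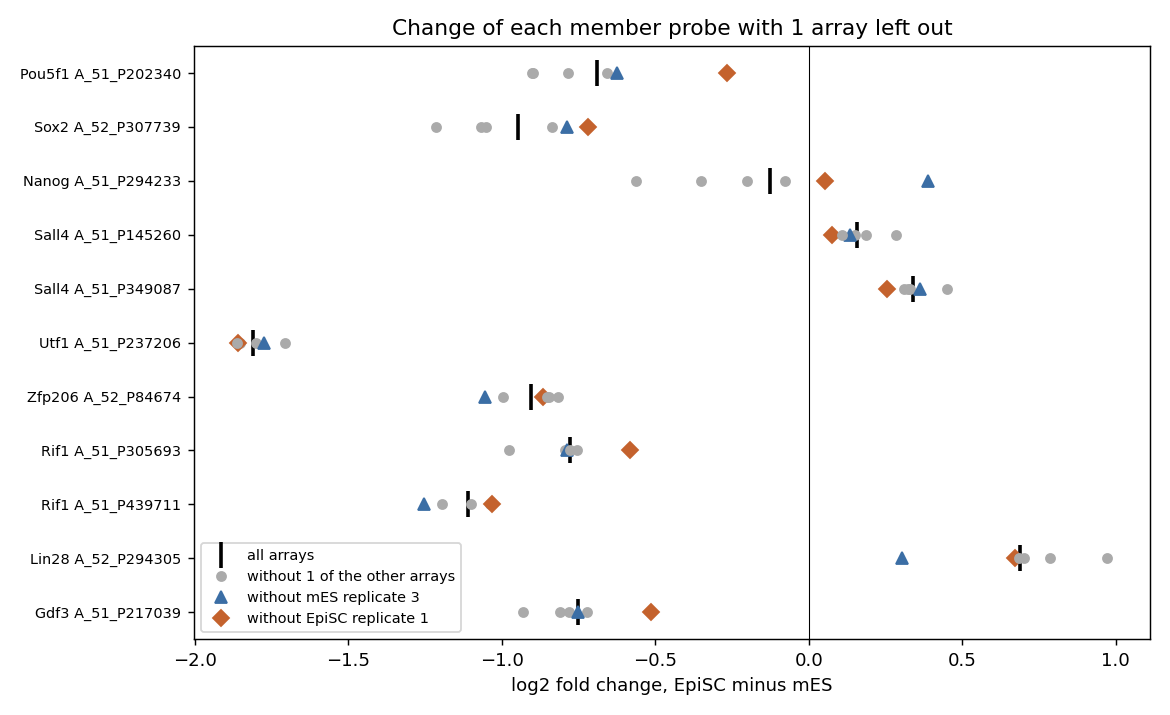
Log2 fold change, EpiSC minus mES (horizontal axis), of each member probe over all 6 arrays (black bar) and with 1 array left out (points); orange diamonds leave out EpiSC replicate 1 and blue triangles mES replicate 3. Pou5f1 moved from -0.69 to -0.27 without EpiSC replicate 1, Lin28 from 0.69 to 0.30 and Nanog from -0.12 to 0.39 without mES replicate 3, and Utf1 kept between -1.86 and -1.70.

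Among the EpiSC arrays, EpiSC-5 held the lowest value for 6 of the 11 probes, those of Pou5f1, Sox2, Nanog, Gdf3 and both of Rif1, and the highest for 3, both of Sall4 and that of Lin28. Before scaling, the processed signal of EpiSC-5 was still the lowest for Pou5f1, Sox2, Gdf3 and, narrowly, Nanog (6254 against 6352 at passage 25). For Rif1 it was not, with 2248 against 2059 at passage 20 for A_51_P305693 and 2416 against 1858 for A_51_P439711. EpiSC-5 also had the highest summed signal of fibroblast markers among the EpiSC arrays, 82.3 times the 75th percentile against 48.6 and 10.1, and of endoderm markers, 48.9 times against 20.3 and 47.7. The part of either in these values was not tested, and with 1 array of this line no test of the difference was made. The EpiSC range of Pou5f1, 2.41-fold, was matched or exceeded by 10.1% of all entering probes, against a median of 1.41-fold. The arrays of EpiSC-7 at passages 20 and 25 differed little for Pou5f1 (18.1 times the 75th percentile on both) and Sox2 (1.02-fold). The largest difference between the passages was that of Nanog, 1.46-fold lower at passage 25, and A_51_P305693 of Rif1 was 1.32-fold higher there, beside a median difference of 1.28-fold over all entering probes. Among the mES arrays, replicate 3 held the highest value for Pou5f1, Sox2, Nanog, Utf1 and A_51_P349087 of Sall4, and the lowest for Lin28, Zfp206, A_51_P439711 of Rif1 and A_51_P145260 of Sall4. Its summed signal of fibroblast markers was the highest of the mES arrays, 104.9 times the 75th percentile against 55.8 and 10.8, and its part was not tested. mES replicate 1 was the lowest mES array for Pou5f1, Sox2, Nanog and Utf1, and the highest for A_51_P145260 of Sall4, both probes of Rif1, Lin28 and Gdf3.

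The labels were checked with marker genes. Zfp42, a zinc finger gene of mES cells, fell 1497-fold in EpiSC (-10.55 ± 0.41 on the log2 scale, adjusted p = 6.72e-05), and the epiblast growth factor gene Fgf5 was 210.1-fold higher (7.72 ± 1.08, adjusted p = 0.00464, detected above background on 2 mES arrays of 3). Of 10 naive ES markers 9 fell and 0 rose, and of 8 epiblast markers 6 rose and 0 fell. Of all probes 14.3% fell and 11.7% rose. The markers that fell include 3 that entered through mES alone, since Dppa3 was above background on 0 EpiSC arrays, Pecam1 on 1 and Nr0b1 on 2, and Fgf5 entered through EpiSC alone. Klf2 did not pass at its brightest probe (-0.40, and -4.47 at its other probe), nor did Pou3f1 (0.31) and Sox3 (0.33). After Zfp42 the smallest p among naive markers belonged to Fbxo15 (-6.43 on the log2 scale) and Pecam1 (-5.16, on mostly undetected EpiSC values), and among epiblast markers to Cdh2 (4.76, and 2.30 at its other probe), Fgf8 (4.99) and Eomes (4.16). Of 8 endoderm markers 6 entered the test, and 4 of these rose, beside 11.7% of all probes. Afp and Ttr were on the array but did not enter. The summed signal of the 6 was 0.724 to 1.06 times the 75th percentile on the mES arrays. On the EpiSC arrays it was 20.3 to 48.9 times, highest on EpiSC replicates 1 and 3. Foxa2 (8.0 on the log2 scale), Sox17 (4.14, and 6.72 at its other probe) and Gata6 (3.55, and 0.03 at the lowest of its 3 probes) led this list. Gata4 (-0.26, adjusted p = 0.764) and Dab2 (0.60, and -1.08 at its other probe, adjusted p = 0.166) did not pass. Fibroblast markers, which the feeder cells also express, differed between arrays of both groups. The sum of 11 of 12 such markers ran from 10.8 to 105 times the 75th percentile in mES and from 10.1 to 82.3 in EpiSC, and all 11 were above background on every array. By limma 0 of the 12 passed between the groups (0 at an unadjusted p under 0.05), beside 26% of all probes. Their standard errors were 0.66 to 1.34 on the log2 scale, against a median of 0.24 over all entering probes. The log2 fold changes ran from -1.16 (Col3a1) to 1.35 (Pdgfrb), so the lack of calls does not show equal fibroblast RNA in the groups. Of 9 measured housekeeping genes 2 fell and 0 rose (1 rose with median scaling), beside 14.3% and 11.7% of all probes. Those that fell were Tfrc (-1.22) and Hprt (-0.87). Ywhaz (1.08, adjusted p = 0.0571 by limma) and Gusb (0.67, adjusted p = 0.0525; -0.01 at its other probe) were higher but did not pass. In these bulk samples fewer cells of a type and less RNA per cell cannot be told apart, and the part of endoderm or feeder RNA in the changes of the member probes was not tested. Without mES replicate 2 and EpiSC replicate 3, the array of each group lowest in fibroblast markers, only Utf1 of the 11 probes passed (adjusted p = 0.0283), while 6.82% of all probes did. That fit held 4 arrays, and over all 6 arrays 26% of all probes passed. The arrays lay on 4 slides, each holding 1 group only, so that slide and cell type cannot be told apart.

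**Figure D4:**
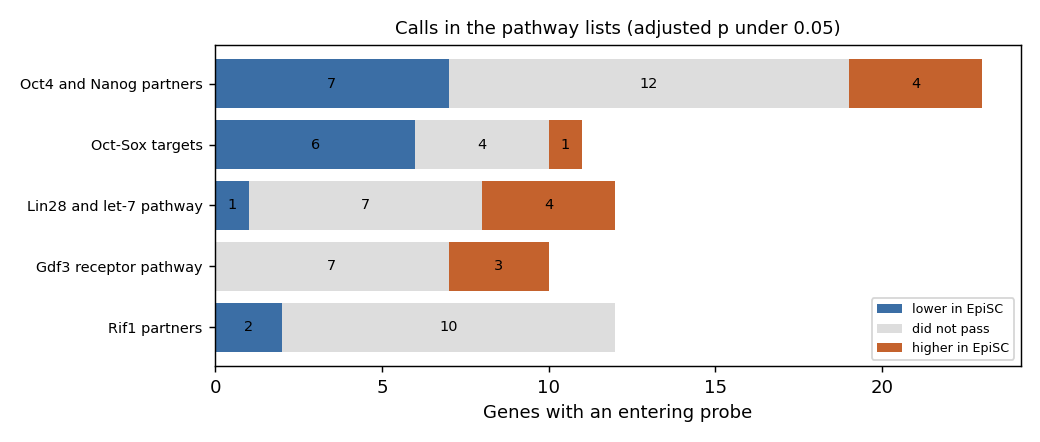
Number of genes (horizontal axis) in 5 lists around the core factors that were lower in EpiSC (blue), did not pass (grey) or were higher (orange), by an adjusted p under 0.05 from limma, 3 arrays per group, with 1 probe standing for each gene. The Oct-Sox target list held 6 lower genes of 11, and the Gdf3 receptor pathway 3 higher genes of 10. Of all probes 14.3% were lower and 11.7% higher.

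The surroundings of the core factors were read from 5 lists, with each gene represented by its entering probe of highest mean. Of 23 measured partners of Oct4 and Nanog 7 fell and 4 rose (median log2 fold change -0.05), beside 14.3% and 11.7% of all probes. Of the 7, Nr0b1 entered through mES alone and passed in 2 of 6 fits with 1 array left out. Nr0b1 and Esrrb are also counted among the naive ES markers above. With median scaling 5 fell and 4 rose, and the median turned to 0.04. With 1 array left out the 11 calls became 3 to 7, with 3 lacking mES replicate 1 or 2, 4 lacking EpiSC replicate 3, 5 lacking EpiSC replicate 1, 6 lacking EpiSC replicate 2 and 7 lacking mES replicate 3. The decreases with the smallest p were those of the cell cycle factor gene Mybl2 (7.59-fold, -2.93 ± 0.23 on the log2 scale, adjusted p = 0.000722), of the orphan nuclear receptor gene Esrrb (-6.04 ± 0.47, adjusted p = 0.00127; -1.66 at its other probe, and 1 mES value missing) and of Klf5 (-2.98 ± 0.48, adjusted p = 0.00706; -1.77 at its other probe). Mta1, a subunit of the NuRD chromatin complex, rose 1.80-fold (0.85 ± 0.19, adjusted p = 0.0203), the forkhead gene Foxd3 2.81-fold (1.49 ± 0.39, adjusted p = 0.0331) and Tcf7l1, a repressor in the Wnt pathway, 1.77-fold (0.82 ± 0.22, adjusted p = 0.0353). Of these 6, Mybl2, Esrrb and Klf5 passed without any 1 array, Mta1 passed for 3 of the 6 arrays dropped in turn (highest adjusted p 0.0587, lacking mES replicate 1), Foxd3 in 1 (0.0989 without EpiSC replicate 3) and Tcf7l1 in 0 (0.11 without EpiSC replicate 3).

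Genes known as targets of Oct4 and Sox2 in mES cells or close to them in the network formed the next list. Of its 11 measured members 6 fell and 1 rose, against 14.3% and 11.7% of all probes, with a median log2 fold change of -2.22. Of the 6, Dppa4 entered through mES alone, and Zfp42 and Fbxo15 are also counted among the naive ES markers above. Dppa5a (log2 fold change -10.23 ± 0.26, adjusted p = 1.28e-05), Zfp42 and Dppa4 (-9.46 ± 0.46, adjusted p = 0.000126, detected above background on 1 EpiSC array of 3) had the smallest p-values. The Nodal inhibitor gene Lefty1 rose 11.8-fold (3.56 ± 0.47, adjusted p = 0.00384). The co-receptor gene Tdgf1 did not pass (-0.15 ± 0.26 on the log2 scale, adjusted p = 0.697). The list was written with results of these samples known and is not independent evidence of its direction.

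In the Lin28 and let-7 pathway 4 of 12 measured genes rose and 1 fell (median 0.27), beside 11.7% and 14.3% of all probes. These 5 calls became 1 lacking any of mES replicates 1 and 2 and EpiSC replicates 1 and 3, 2 lacking EpiSC replicate 2 and 4 lacking mES replicate 3. The chromatin architecture gene Hmga2, a let-7 target, rose 4.59-fold (log2 fold change 2.20 ± 0.34, adjusted p = 0.0061; 0.97 at the lowest of its 3 probes) and passed without any 1 array. Igf2bp2, an mRNA-binding let-7 target, rose 1.77-fold (0.82 ± 0.19, adjusted p = 0.0219), and the paralogue Lin28b rose 2.18-fold at its brightest probe (1.12 ± 0.30, adjusted p = 0.037; 0.31 at the lowest of 3). Drosha, which makes the first cut in microRNA maturation, fell 1.67-fold (-0.74 ± 0.17, adjusted p = 0.0243). When arrays were dropped in turn, Igf2bp2 passed in 1 fit of 6 (highest adjusted p 0.0724, lacking mES replicate 1), Lin28b in 0 (0.0923 without EpiSC replicate 2) and Drosha in 2 (0.0845 without EpiSC replicate 1).

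In the pathway of Gdf3, 3 of 10 measured genes rose and 0 fell (median 0.29), beside 11.7% and 14.3% of all probes. The share that passed in either direction was close to the 26% of all probes. The 3 that rose were the signal transducer Smad3 (2.03-fold, 1.02 ± 0.18 on the log2 scale, adjusted p = 0.00949) and the type II receptor genes Acvr2b (2.07-fold, 1.05 ± 0.19, adjusted p = 0.0106) and Acvr2a (1.86-fold, 0.89 ± 0.16, adjusted p = 0.0112). Each of them also passed without any 1 array. Among 12 genes of telomeres, breaks and phosphatase subunits that work with Rif1, 2 fell and 0 rose (median -0.06, and 0.03 with median scaling), close to the 14.3% of all probes that fell. They were the telomere-binding protein genes Terf1 (2.75-fold, -1.46 ± 0.27, adjusted p = 0.0113) and Terf2 (2.07-fold, -1.05 ± 0.20, adjusted p = 0.0116), and the 4 probes of Terf2 ran from -1.05 to 0.35. Both passed without any 1 array. Without the 2 arrays lowest in fibroblast markers none of these 5 genes passed, and 6.82% of all probes did, with 4 arrays left. The log2 fold changes in that fit were 0.92 for Smad3 (adjusted p = 0.106), 1.18 for Acvr2b (0.0597) and 0.90 for Acvr2a (0.0931). They were -1.46 for Terf1 (adjusted p = 0.0853) and -0.84 for Terf2 (0.109).

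The named genes whose probes followed the core factors most closely over the 6 arrays were listed by Pearson's r as a description. For Pou5f1 these were Cetn3 (0.996), F2rl1 (0.993) and Tab3 (0.980), for Sox2 Sat1 (0.999), Tmem143 (0.997) and Tbc1d1 (0.995), and for Nanog Mmut (0.992), Leo1 (0.988) and Nxph3 (0.987). With 6 arrays and so many probes searched, these values rank probes and carry no test.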

How the data were processed

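Gene expression had been measured on 6 Agilent 1-colour arrays of 45018 spots, 3 of mES and 3 of EpiSC. Per the file headers, the deposited scanner files hold a linear intensity per spot from Agilent Feature Extraction 9.1.3.1. Detrending, both spatial and multiplicative, was on. The authors' value table, also an intensity, differed from it by at most 0.00716 on the log2 scale, and held 0 unused per-sample columns. For the probes no genome build is named, and their sequences were not used.

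Control spots and spots flagged as outliers (12 to 24 per array) were left out, 0 spots were saturated, and the 75th percentile of each array was subtracted from the log2 signal. Spots of 1 probe were averaged, and their median standard deviation on 1 array was 0.07 (log2; 173 probes with 10 spots). Each member probe had 1 spot. Probes entered the test when all arrays of either group were well above background, with at most 1 missing value per group. The median processed signal was 74.6 to 126 per array, and 66.2% to 75.4% of probes were above background. The comparison used lmFit and eBayes of limma (version 3.58.1, R 4.3.3), two-sided, with no covariate (residual degrees of freedom 4, prior 2.66, median standard error 0.24). The number of arrays limits the precision, and as the labels name no separate cultures within a line, the p-values cover the spread of these samples, which may be partly technical. The scripts were tested on simulated data with planted changes larger than that of any member probe, so changes of the members' size were not covered. Alternatives changed the background correction, scaling, filter, blocks, summary per gene and the arrays included.

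Every member probe was named whatever its value. From each other list up to 3 genes past the threshold in each direction were taken by smallest adjusted p, with Zfp42 and Fgf5 as a check of the labels and 3 genes most alike to each of Pou5f1, Sox2 and Nanog. Tdgf1 was named beyond this rule because Gdf3 acts with its product. Some other genes were named to give the limits of a count. Members and lists were chosen with earlier results of these data known. Of 41174 probes 55.7% took their name through an accession of the RefSeq table, whether or not it changed, and the others kept the scanner file's name.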

Additional observations from a re-analysis of the deposited data

How the results depend on the processing

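Among the 11 probes the direction was kept in all alternatives except for Nanog, whose log2 fold change became 0.0214 with quantile normalization, 0.44 from position 4 alone, 0.39 without mES replicate 3, 0.05 without EpiSC replicate 1 and 0.22 with no scaling between arrays (-0.56 to 0.39 with 1 array left out). The cause was not tested. The count of member probes past the threshold was 3. It was 6 with normexp, 6 with a mean-variance trend, 7 with the slide as a random block (where the fitted correlation was negative, -0.69, which lowers the errors of the group difference), 2 to 4 with 1 array left out, and, in alternatives chosen after seeing the data, 1 without the arrays lowest in fibroblast markers and 1 with no scaling between arrays. Without scaling the median of all probes rose to 0.23 and 28.5% of calls were lower in EpiSC, against 54.9%. With normexp 63.3% of calls were lower, and with no filter on dim probes 70.0%. The count over all probes, 7680, was 12228 with no filter on dim probes, 16899 with the slide as a random block, 3960 at position 4, 4056 to 7140 with 1 array left out, and 2068 without the arrays lowest in fibroblast markers, where 4 arrays remain. With 1 array left out, 3 to 7 of the Oct4 and Nanog partners passed against 11 (3 without mES replicate 1 or mES replicate 2), 6 or 7 of the Oct-Sox targets against 7, 1 to 4 of the Lin28 list against 5, 3 of the Gdf3 pathway and 2 of the Rif1 list. Without the arrays lowest in fibroblast markers these counts were 3, 6, 1, 0 and 0, and with no scaling 9, 6, 4, 4 and 1. The differences between the 2 probes of Rif1 (0.13 to 0.46) and of Sall4 (-0.37 to -0.14) passed in 0 of 20 alternatives each. At position 1, with 1 array per group and no test, the difference was -2.09 for Utf1, -1.25 for Nanog, -0.39 for Pou5f1 and 1.43 for Lin28. No paired analysis was possible because the labels carry no replicate numbers, and those used here only name arrays in accession order.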
